A study of Arabidopsis thaliana with 27 samples.

Results

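The 2 ends of the Arabidopsis root tip gradient were compared: 4 arrays of the mature segment, labelled stage III, against 4 arrays of the tip, labelled stage I. These 8 arrays were chosen by the stage named in their titles and are 8 of 27 in the series, which measured RNA on Affymetrix ATH1 arrays with 22810 probe sets. All stage samples were wild-type roots of the Columbia background, with no transgene or treatment named. Seedlings were raised on MS medium containing 4.5% sucrose, with days of 16 h light and 8 h dark. Stage I runs from the tip to about 0.15 mm, the level at which the root has widened to its full diameter. Stage III runs from 0.45 mm to 2 mm and ends where root hairs have stopped growing. A stage II segment, ending near 0.30 mm where cells begin to elongate, gave 4 more arrays, which enter the estimate of the spread and are otherwise given as levels only. The labels do not say whether replicates came from separate cultures, so p-values measure the spread between these arrays. Plant ages are not in the labels used here.

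A root grows from a meristem just behind the tip, where cells divide, and is covered at its end by the root cap, a sheath that is shed and renewed. Cells displaced from the meristem stop dividing, many go through rounds of DNA replication without division, and then lengthen many-fold. In the mature zone epidermal cells grow hairs, the endodermis deposits the Casparian strip, a lignin barrier, and xylem vessels thicken their walls. Position along the root therefore stands for age after the last division.

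Array quality was set beside the stages before any gene. The median signal was 35.6 ± 2.73 (SD, n = 4) in stage I and 38.6 ± 2.18 in stage III (two-sided exact permutation test, p = 0.143). Between 14642 and 15882 probe sets exceeded background in stage I and between 15934 and 16937 in stage III, without overlap (exact p = 0.0286, the smallest that 4 against 4 can give). Background was a signal of 14.78, taken from unspiked bacterial control probe sets. The ratio of 3' to 5' signal was taken from both GAPDH control sets of the array and from the actin and ubiquitin sets. It was 15.4 ± 10.3 in stage I and 17.8 ± 15.1 in stage III for the Athal GAPDH set (exact p = 0.857). For the r2-At GAPDH set it was 1.91 ± 0.22 and 2.01 ± 0.72 (exact p = 0.771). The actin ratio was 7.41 ± 0.71 and 8.48 ± 2.43 (exact p = 0.429), and the ubiquitin ratio 7.66 ± 2.18 and 5.57 ± 1.80 (exact p = 0.2). The Athal ratio and the cre spike-in signal split each stage: replicates 1 and 2 belonged to a class with low cre signal and replicates 3 and 4 to a class with high cre signal. The r2-At ratio split stage III in the same way but not stage I. In the low class it was 1.69 and 2.19 in stage I and 1.38 and 1.43 in stage III. In the high class it was 1.79 and 1.95 against 2.47 and 2.78, so the stages differed in opposite directions. The actin ratio did likewise, while the ubiquitin ratio was lower in stage III in both classes. The first principal component of the stage arrays held 51.1% of the variance and placed all stage I arrays on one side and all stage III arrays on the other.

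The ends differed across much of the measured transcriptome. With limma and Benjamini-Hochberg adjustment at 0.05, 9806 of 22746 probe sets were called, or 43.1%. Of these, 4779 were higher in stage III (21.0%) and 5027 were lower (22.1%), and these shares are the background for every list below. Arrays of the 2 stages did not overlap for 4429 probe sets higher in stage III (19.5%) and 4764 lower (20.9%). The median log2 difference over all probe sets was 0.07. Counts in the 2 directions were nearly equal, but the fitted sizes were not. At least 4-fold differences numbered 1706 higher and 1184 lower, and at least 16-fold differences 289 higher and 35 lower. Within the low class alone 8139 probe sets were called and within the high class alone 8229, and with the class as a block 10805. In segments of whole root, fewer cells of a type and less RNA per cell cannot be told apart.

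**Figure D1:**
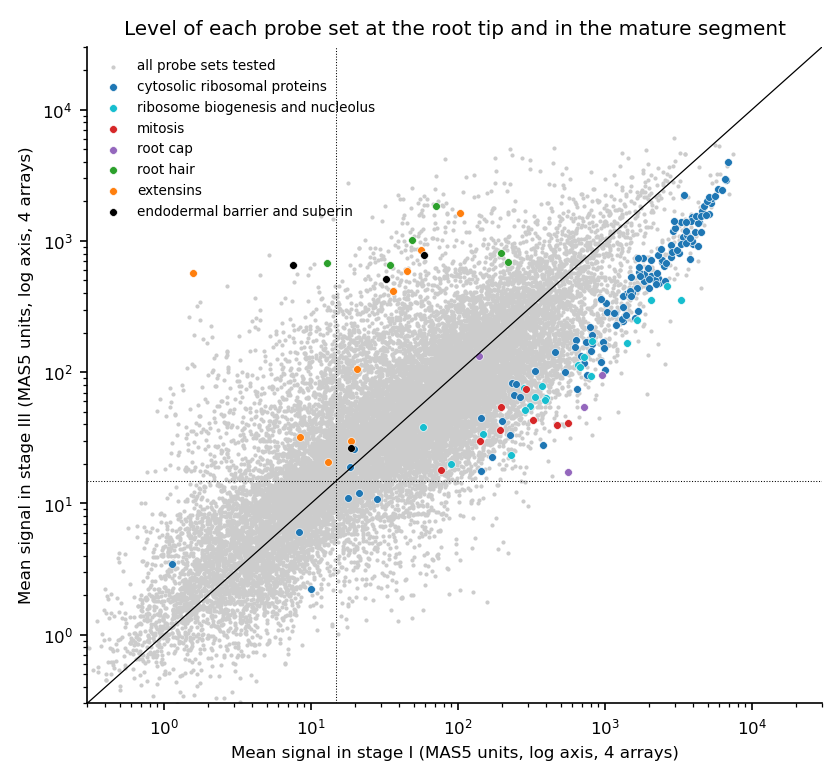
Mean signal of each probe set in stage I (x axis) and stage III (y axis), in MAS5 units on log axes, with selected gene lists in colour and the background of 14.78 as dotted lines. Ribosomal protein, ribosome biogenesis, mitosis and most root cap genes lie below the diagonal, while root hair, most extensin and most endodermal barrier genes lie above it.

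Genes of cell division were high at the tip and low in the mature segment. The chromatin protein 3xHMG-box2, which binds mitotic chromosomes, gave signals of 394, 594, 704 and 541 in stage I, 123 on average in stage II, and 48.5, 35.6, 58.0 and 20.7 in stage III. Every stage I array stood above every stage III array, and the gene fell by 3.76 on the log2 scale (SE 0.27, adjusted p = 2.9e-07). TOPII encodes topoisomerase II, which untangles replicated chromosomes, and gave 412, 491, 433 and 547 against 38.4, 28.0, 71.3 and 20.6. Its log2 difference was -3.63 (SE 0.30, adjusted p = 5.5e-07), and again no arrays overlapped. Both markers of dividing cells were therefore highest in the segment labelled as the tip.

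The mitosis list had 8 members with an assigned probe set, and all 8 fell, with a median log2 difference of -2.29 beside 0.07 over all probe sets. The median was -2.32 in the low class and -2.41 in the high class. BUB3.1 and BUBR1 belong to the spindle checkpoint, which delays chromosome separation. BUB3.1 went from 329, 365, 256 and 339 to 53.7, 42.5, 41.2 and 35.9, a log2 difference of -2.83 (adjusted p = 9.1e-08). BUBR1 read 49.7, 102, 97.8 and 91.3 at the tip and 3.61, 3.79, 3.55 and 1.80 in the mature segment, where every array was below background. The 3 Aurora kinases, which phosphorylate histones and spindle proteins, fell less: -1.91 for AUR1, -1.81 for AUR2 and -2.18 for AUR3. HTR12, the centromeric histone H3, went from 63.8, 72.1, 86.2 and 85.7 to 19.9, 25.4, 15.5 and 11.2, and Haspin, a histone H3 kinase, differed by -1.89.

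A wider list of kinesins, spindle proteins and condensin subunits, with 20 members measured, held 14 that fell and none that rose. Its median log2 difference was -1.90. AT5G15510, from a family of spindle microtubule proteins, gave 89.5, 82.0, 161 and 163 in stage I and 11.9, 1.95, 2.65 and 1.76 in stage III, so the low side was at background on all arrays. KINESIN-12B, a motor of the phragmoplast that builds the new wall, fell by 2.28. A further 11 cell cycle genes included 7 that fell and 3 that rose, so the direction was not uniform. The largest of those rises was ATMAP65-6, a microtubule-associated protein, at 46.5, 52.4, 66.6 and 71.8 against 282, 507, 576 and 697. What the members that rose do in these segments was not tested.

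**Figure D2:**
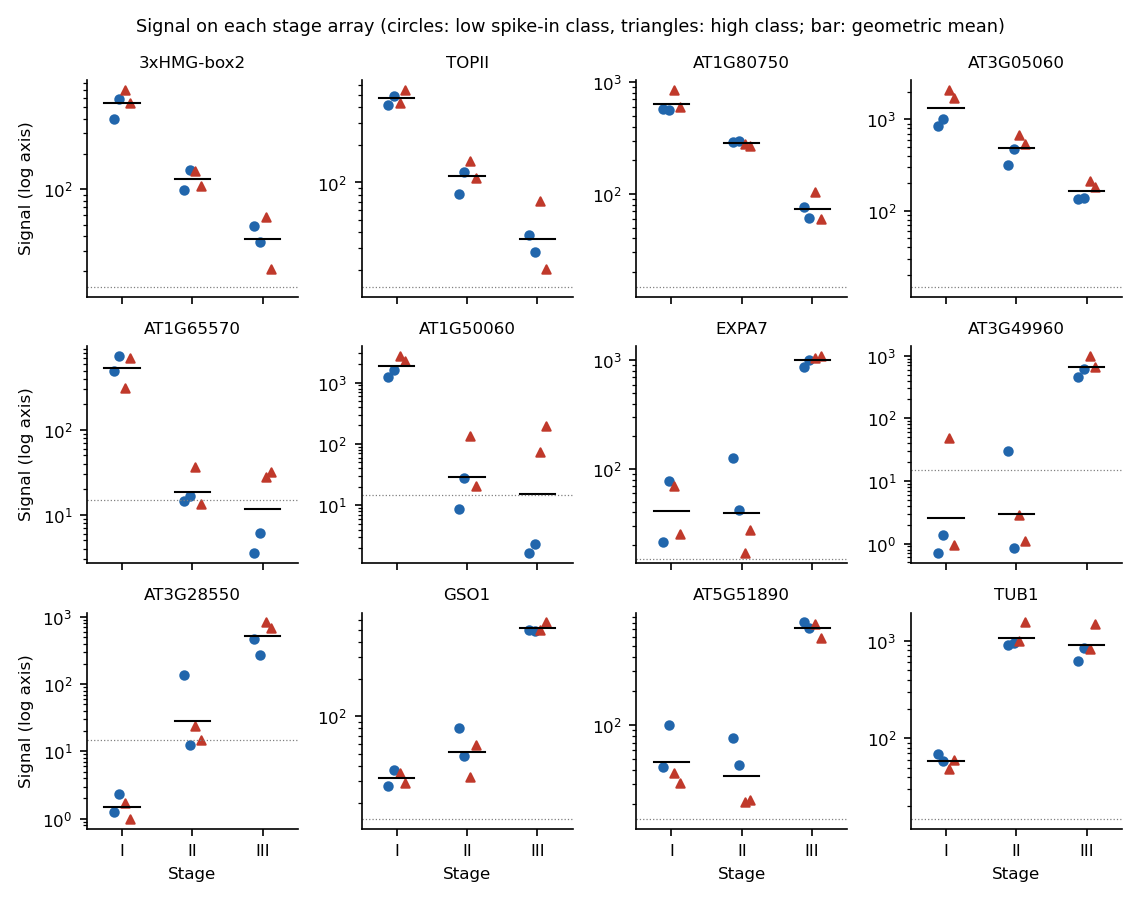
Signal of 12 genes on every stage array, on log axes, with the stage on the x axis, circles for the low and triangles for the high spike-in class, a bar at the geometric mean and a dotted line at the background of 14.78. In all 12 panels the stage I and stage III arrays do not overlap. TUB1 is as high in stage II as in stage III, while EXPA7 in stage II is at its stage I level.

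DNA replication was represented by 2 genes, both lower in stage III. PRL, a subunit of the MCM helicase that opens DNA at origins, gave 232, 314, 316 and 303 against 90.4, 84.6, 88.5 and 80.3, a log2 difference of -1.72 (adjusted p = 2.5e-06). ICU2, the catalytic subunit of DNA polymerase alpha, gave 48.4, 49.0, 57.4 and 58.0 against 30.3, 27.2, 14.3 and 28.2 (-1.06, adjusted p = 0.0084), but missed the threshold in each spike-in class alone. Of 9 core histone genes measured 5 fell, with a median of -1.06. HTB4, HTB1, HTB2 and AT2G37470, which encode histone H2B, fell by 1.65, 1.71, 1.62 and 1.54. HTB4 stayed abundant in stage III, at 338, 361, 294 and 285. SIM, a cyclin-dependent kinase inhibitor that promotes endocycles, moved the other way, from 20.5, 16.0, 8.33 and 14.9 at the tip to 121, 209, 151 and 255, with a mean of 229.6 already in stage II. Its log2 difference was 3.42 (SE 0.27, adjusted p = 4e-07).

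Regulators of the meristem differed in direction. BBM, an AP2-type factor of the stem cell niche, gave 67.4, 77.6, 32.6 and 31.3 in stage I and 7.09, 2.65, 7.47 and 15.9 in stage III. It fell by 2.40 (adjusted p = 0.00033), with -3.44 in the low class and -1.36 in the high class, where it missed the threshold. UPB1 encodes a bHLH factor that controls the shift from division to differentiation through peroxidase genes, and it rose by 4.60 (adjusted p = 4.5e-06). Its signals were 26.6, 13.4, 2.34 and 15.5 in stage I, 217 on average in stage II and 169, 310.5, 399 and 618 in stage III. JKD, a zinc finger factor of the ground tissue, was not called (-0.41, adjusted p = 0.35), with overlapping groups.

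Genes of the protein synthesis machinery fell nearly throughout. Of 124 cytosolic ribosomal protein genes with an assigned probe set, 115 fell and none rose, which is 92.7% against 22.1% of all probe sets. The median log2 difference was -1.77, with -1.50 in the low and -2.08 in the high class, and -1.68 after quantile normalization. AT1G80750 gave 569, 559.9, 853 and 604 in stage I, 283 on average in stage II and 75.5, 60.8, 104 and 59.5 in stage III. The stage I arrays all exceeded the stage III arrays, with a log2 difference of -3.08 (SE 0.19, adjusted p = 1.2e-07). AT1G15250 had the largest fall, -3.96, and AT4G02230 and AT5G15520 fell by 2.61 and 2.52. The family stayed abundant all the same, and 32 members still had a mean signal above 1000 in stage III.

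Of the 9 ribosomal protein genes not called, 6 had mean signals of at most 25.8 at both ends, and the other 3 had mean signals of at least 2225. Those 3 differed between spike-in classes. AT5G20290 gave 3841, 3564, 8628 and 10414 in stage I and 2722, 2772, 3526 and 2751 in stage III, so replicates 3 and 4 of stage I were above the first 2. Its log2 difference was -1.02 (adjusted p = 0.063), but with the class as a block the adjusted p was 0.005. AT3G60245 and AT1G77940 behaved alike, with adjusted p-values of 0.28 and 0.17 without the block and 0.017 and 0.0079 with it.

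Ribosome assembly genes were lower as well, with a list median of -2.53. Among 21 measured genes of ribosome biogenesis and the nucleolus 20 fell and none rose. AT3G05060 and AT3G12860 belong to the family of box C/D snoRNP core proteins that guide rRNA methylation. AT3G05060 gave 857, 1023, 2108 and 1697 in stage I against 136, 137, 214 and 184 in stage III, with no overlap (adjusted p = 2.1e-06), and AT3G12860 differed by -3.06. AT3G03920, a GAR1-type protein of the snoRNPs that guide pseudouridylation, fell by 3.14 (adjusted p = 9.3e-06). AT5G14520 and AT2G40360, homologues of the yeast large-subunit assembly factors Pescadillo and BOP1, fell by 2.83 and 2.56. Stage II means of these 5 genes lay between the ends, for example 503 for AT3G05060.

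Root cap genes were mostly lower beyond the tip. Of 10 listed root cap genes only 4 had an assigned probe set, and 3 of these fell. AT1G65570, from the polygalacturonase family of pectin-degrading enzymes, gave 496, 738, 312 and 693 in stage I and 3.56, 6.13, 27.8 and 32.2 in stage III. It fell by 5.14 (SE 0.52, adjusted p = 2.5e-06), with -6.42 in the low and -3.85 in the high class. AT4G27400 went from 466, 796, 703 and 923 to 32.7, 22.5, 76.2 and 85.2 and fell by 3.83. The multicopper oxidase-like gene sks15 fell by 3.39. AT4G04460 (PASPA3), an aspartic protease of cells that undergo programmed death, was the exception, at 87.5, 196, 129 and 140.4 against 84.9, 172, 144 and 128 (log2 -0.05, adjusted p = 0.9). The summed signal of the 4 genes was 1661 to 2827 in stage I and 255.8 to 376.2 in stage III.

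The 15 largest falls ranged from 4.33 to 6.34 on the log2 scale, and in 6 of them stage III was at or below background on every array. AT1G50060 led, with 1243, 1621, 2701 and 2218 in stage I and 1.67, 2.31, 73.8 and 196 in stage III. Its low-class stage III arrays were at background and its high-class arrays were not, so the difference was -8.35 in one class and -4.32 in the other. AT5G24070, a class III peroxidase, gave 187, 178, 304 and 212 against 0.728, 2.06, 12.3 and 1.71, at least 14.6-fold lower. GH9B6, an endoglucanase that cuts wall glucans, went from 205, 329.5, 232 and 374 to 3.51, 3.73, 3.90 and 46.8, and only replicate 4 of stage III exceeded background. AT5G60530 gave 1324, 2198, 3049.5 and 3684 at the tip, was still at 272 in stage II, and gave 53.7, 46.9, 192 and 173 in stage III. Other genes of this group were AT3G19430 (-4.66), AT3G61930 (-4.79), AT1G48070 (-4.78), AT1G10530 (-5.05), AT1G13730 (-4.40) and AT1G26680 (-4.35). Stage III was below background on all arrays for AT1G48070, AT1G10530 and AT1G26680, which were at least 7.7-, 9.0- and 5.8-fold lower.

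The measured root hair genes all rose. The 6 measured members of the root hair list, which holds 22 genes, were higher on every stage III array than on any stage I array. This held for 19.5% of all probe sets. The median log2 difference of the list was 4.40 beside 0.07 over all probe sets. EXPA7, a hair-specific expansin that loosens the growing wall, gave 21.3, 77.6, 70.1 and 25.2 in stage I, 53.2 on average in stage II, and 876, 1003, 1060.3 and 1094 in stage III. Its log2 difference was 4.51 (SE 0.50, adjusted p = 5.5e-06). EXPA18, the other hair expansin, rose by 4.80, from 27.1, 83.9, 124 and 47.4 to 1389, 1229.8, 2583 and 2155. The hair peroxidases AT3G49960 and AT4G26010 rose by 6.63 and 4.29. AT3G49960 was below background on stage I replicates 1, 2 and 4 and at 48.6 on replicate 3.

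Genes of hair tip growth with wider roles rose less. CSLD2, a cellulose synthase-like protein needed for hair walls, gave 239.7, 209, 193 and 143 in stage I and 595, 755, 847 and 1037 in stage III, a log2 difference of 2.03. SCN1, a RhoGDI that keeps hair growth to 1 site per cell, gave 262, 192, 234 and 191 against 539, 484, 779.7 and 963 (1.60). Both had stage II means between the ends, 417 for CSLD2 and 424 for SCN1. The summed signal of the 6 genes was 422.2 to 733.3 in stage I and 4693 to 6779 in stage III.

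Structural and remodelling proteins of the cell wall were mostly higher in the mature segment. Extensins are hydroxyproline-rich glycoproteins that are cross-linked into the wall, and 7 of 9 measured genes rose and none fell. Their median log2 difference was 3.28, with 2.47 in the low and 4.08 in the high class. AT3G28550 was below background on all stage I arrays, at 1.27, 2.33, 1.72 and 0.982, and gave 471, 273, 825 and 693 in stage III, at least 35.2-fold higher. HRGP1 gave 101, 94.0, 136 and 83.1 against 970.3, 755, 2425 and 2349.8, and its probe set can also bind near-identical extensin transcripts. Several extensin probe sets share this limit, so single members are uncertain.

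Expansins and xyloglucan endotransglucosylase/hydrolases (XTHs), which cut and rejoin xyloglucan, were measured for 27 genes. Of these 14 rose and 3 fell, with a median of 1.27. XTH21 was near or below background in stage I, at 0.897, 16.4, 8.94 and 4.33, and gave 301, 465, 460.3 and 714 in stage III, a log2 difference of 5.82. XTH33, XTH18 and XTH19 rose by 4.14, 3.87 and 2.62. XTH19 was already at 563 on average in stage II, inside its stage III range of 467 to 1348. Among expansins EXPA8 rose by 4.41, whereas EXPA15 gave 417, 522, 309.5 and 241 in stage I and 84.2, 125, 113 and 51.2 in stage III and fell by 1.98. EXPA4 also fell, by 1.89.

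Glycan-modifying families showed the same mixture. Of 15 GH9 endoglucanases 7 rose and 2 fell, with a median of 0.52. GH9C1, which carries a carbohydrate-binding domain, gave at most 63.6 on the stage I arrays and 1082, 1077, 1893 and 1888 in stage III (5.16), opposite to GH9B6. In the low class alone only 3 GH9 genes were called higher. Of 22 TRICHOME BIREFRINGENCE-LIKE genes, whose family acetylates wall polysaccharides, 9 rose and 1 fell. TBL38 gave 11.7, 63.3, 23.2 and 5.81 against 1102, 1341, 1699 and 1903, a log2 difference of 6.14 (SE 0.53, adjusted p = 7.4e-07). TBL37 rose by 3.85, and TBL36 fell by 2.69, from 215, 184, 233 and 220.4 to 66.7, 34.4, 28.1 and 13.3.

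Among 8 cellulose synthase and cellulose synthase-like genes 5 rose and 1 fell. The fall was not called without stage I replicate 2, in either class alone or at a 2-fold minimum. CSLA03, from the glucomannan synthase family, was at 1.17, 1.66, 0.636 and 2.96 in stage I, all below background, and at 172, 241, 171 and 188 in stage III. It was at least 12.9-fold higher (adjusted p = 2.4e-08). CSLC12, from the xyloglucan glucan synthase family, rose by 3.04, by 2.06 in the low and 4.03 in the high class.

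Class III peroxidases, secreted enzymes that make and consume hydrogen peroxide in the wall, rose more often than they fell. Of 55 measured 27 rose, 2 fell and 26 were not called. That is 49.1% higher beside 21.0% of all probe sets, with a median of 1.06. The hair peroxidases and those of the barrier and xylem lists are counted here too. AT3G01190 gave 26.5, 98.2, 19.4 and 24.4 in stage I, 524 on average in stage II, and 1458, 2291, 1921 and 2617 in stage III. Its log2 difference was 5.81 (SE 0.40, adjusted p = 2.1e-07), and the groups were far apart. AT1G44970 and AT1G30870 rose by 5.43 and 5.37, and AT1G30870 reached 1769.8, 2246, 4171 and 3999.7. AT2G43480, at 214, 261, 337 and 384 against 25.7, 20.6, 30.9 and 32.4, fell by 3.32.

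Endodermal barrier genes rose, with 3 of 4 measured members called, from a list of 24, and a median of 3.96. GSO1, the receptor kinase that senses whether the Casparian strip is sealed, gave 27.5, 36.9, 35.1 and 29.2 in stage I and 497, 492, 500.1 and 573 in stage III. The stage III arrays differed little from one another, and the log2 difference was 3.91 (SE 0.23, adjusted p = 8.4e-08). AT4G11290, a peroxidase, was below background on 3 of 4 stage I arrays and gave 673, 1021, 405 and 501 in stage III, with a stage II mean of 309.7. AT2G39430, a dirigent-type protein, gave 17.2, 73.1, 116 and 27.4 against 860.4, 748, 646 and 844 and rose by 4.01. FACT, which transfers caffeoyl groups to fatty alcohols of root waxes, was not called (0.31, adjusted p = 0.62), at 19.2, 21.5, 12.5 and 21.2 against 54.3, 17.4, 15.2 and 19.7.

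Xylem wall genes followed, with 3 of 4 measured members called higher, from a list of 19. The peroxidase AT5G51890, expressed with lignifying vessels, gave 42.7, 99.7, 37.9 and 31.0 in stage I and 805, 718, 772 and 590.5 in stage III (3.85, adjusted p = 2.3e-06). GUT2, a glucuronoxylan synthase component, gave 44.0, 54.8, 42.2 and 54.3 against 156, 209, 197 and 200.4 and rose by 1.91. IRX15-L, which affects xylan chain length, rose by 2.99. Its paralogue IRX15 had 27.2, 33.4, 5.17 and 4.70 in stage III, above background only on the low-class arrays, and was not called (1.09, adjusted p = 0.11, 0.031 with the class as a block). Stage II means of all 4 were no higher than their stage I means, for example 7.43 for IRX15-L against 15.4, 29.2, 21.3 and 7.92 at the tip.

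Of 4 measured vascular and lateral root regulators 1 rose and 1 fell. LBD16, an auxin-induced factor of lateral root founder cells, gave 19.7, 12.2, 13.5 and 8.20 in stage I and 106, 68.9, 81.5 and 106 in stage III (2.59, adjusted p = 5.9e-06). LHW, a bHLH factor of early vascular divisions, gave 157, 219, 162 and 182 against 99.1, 109.6, 97.9 and 102 and fell by 0.79 (adjusted p = 0.0014). PHV, an HD-ZIP III factor of xylem patterning, was not called, at 36.4, 38.7, 48.0 and 56.8 against 55.6, 44.9, 49.9 and 40.3 (adjusted p = 0.79).

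Tubulin genes split by member. Of 7 measured 3 rose and 1 fell, with a median of 0.48. TUB1 gave 69.1, 58.9, 48.6 and 59.7 in stage I and 627, 844, 813 and 1491 in stage III, and its stage II mean of 1095 lay within the stage III range. Its log2 difference was 3.88 (SE 0.25, adjusted p = 1.4e-07). TUB5 and TUB6 rose by 1.87 and 0.84, and both were higher in stage II, at 695 and 568, than on any stage III array. TUB6 was not called in the high class alone (0.57). TUB7 fell by 1.18, from 309, 286, 452 and 393 to 134, 142, 157 and 189.

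**Figure D3:**
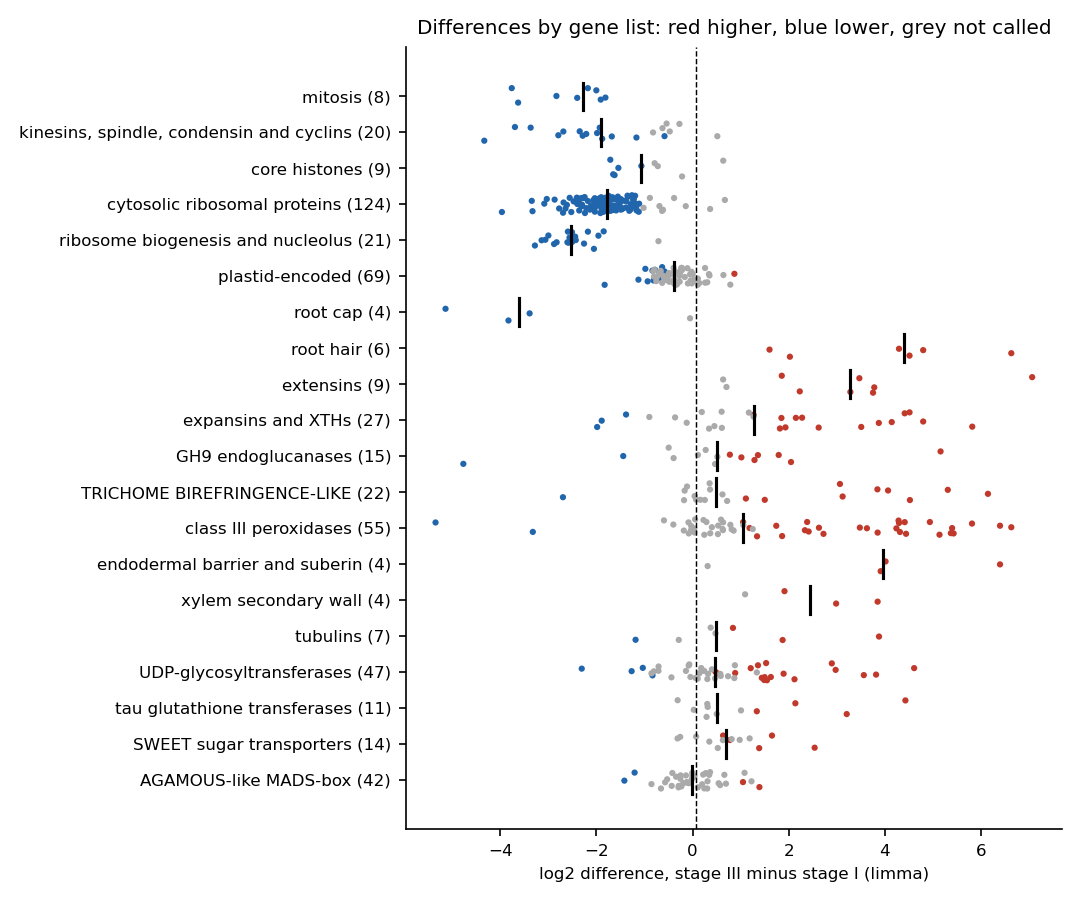
Log2 difference between stage III and stage I (x axis) for each measured member of 20 gene lists (y axis, number of probe sets in parentheses), red for called higher, blue for called lower and grey for not called. Black bars mark list medians and the dashed line the median of 0.07 over all probe sets. Ribosomal protein genes cluster near -1.77, whereas wall families spread from falls to large rises.

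Hormone genes did not move as a block. Of 7 Aux/IAA genes, from a family of repressors of the auxin response, 3 rose and 2 fell. IAA20 gave 42.6, 45.1, 66.1 and 71.4 in stage I and 0.868, 3.44, 17.9 and 1.51 in stage III, with only replicate 3 above background, and fell by 3.21. IAA33 fell by 2.92, whereas IAA18 rose by 2.31 and IAA29 by 2.46, the latter from levels below background. Of 12 GH3 genes, whose enzymes join amino acids to hormones and other acids, 2 rose and 2 fell. That is 16.7% each way, below the 21.0% and 22.1% of all probe sets. The number that rose was 1 with dim probe sets left out, in either class alone, and without stage I replicate 1, 3 or 4 or stage III replicate 2 or 3. AT5G51470 gave 170.4, 245, 163 and 171 at the tip against 1.46, 1.51, 1.92 and 13.0, at least 12.5-fold lower. AT1G23160 fell by 4.75, with -6.44 in the low and -3.05 in the high class. Both measured type A response regulators of cytokinin had mean signals below background at each end, and neither was called.

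RALF-like peptides, secreted signals that alter wall pH and growth, had 4 of 11 members higher and 1 lower. RALFL32 gave 39.9, 46.3, 70.4 and 41.8 in stage I and 316, 221, 478 and 600.3 in stage III, a log2 difference of 2.90. RALFL33 rose by 2.57. RALFL34, which acts early in lateral root formation, gave 469.5, 509, 818 and 561 against 312, 189, 188 and 106 and fell by 1.62 (adjusted p = 0.00021).

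Transport and detoxification families had more members called higher than lower. Of 14 SWEET sugar transporters 5 rose and none fell, or 35.7% higher beside 21.0% of all probe sets. The number called was 3 when any of 6 single arrays was left out, so the excess over that share depended on single arrays. SWEET11 gave 23.0, 72.9, 40.9 and 24.4 in stage I and 198, 364, 183 and 183 in stage III (2.54), and SWEET17, a vacuolar fructose carrier, rose by 1.65. SWEET13 rose by 1.39, but its 4 stage III signals, 153, 69.1, 42.9 and 37.7, were uneven, and it missed the threshold in the high class alone (adjusted p = 0.11). Of 11 tau-class glutathione transferases 4 rose and none fell, or 36.4% higher. GSTU28 gave 15.5, 27.7, 12.8 and 14.4 against 328, 451, 309 and 628 (4.43) and GSTU27 rose by 3.21.

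Specialised metabolism was mixed in direction. Of 47 UDP-glycosyltransferases, which add sugars to small molecules, 18 rose and 4 fell, or 38.3% higher beside 21.0% of all probe sets, with a median of 0.48. UGT71C1 gave 11.5, 16.2, 12.6 and 2.85 in stage I and 314, 446, 205 and 241 in stage III (4.61). UGT72E3, which glucosylates monolignols, rose by 3.82, and UGT73B4 fell by 1.27. Of 19 terpene synthases 4 rose and 4 fell, close to the shares over all probe sets. AT1G33750 gave 503, 604, 558 and 589 against 46.0, 33.3, 49.4 and 39.2 and fell by 3.68 (SE 0.16, adjusted p = 2.4e-08). AT3G32030 went the other way, at 1.27, 5.95, 1.13 and 2.32 in stage I and 251, 264, 342 and 969 in stage III, by a probe set that may bind related transcripts. Cytochrome P450s had 8 of 23 higher and 2 lower, or 34.8% and 8.7%. They had 3 each way with dim probe sets left out and 5 higher in the low class alone. Beta-glucosidases had 4 of 21 higher and 3 lower, or 19.0% and 14.3%, below the 21.0% and 22.1% of all probe sets.

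The 15 largest rises ranged from 5.81 to 7.26, and in 7 of them stage I was at or below background on every array. AT1G04040 gave 17.3, 41.2, 12.4 and 0.954 in stage I, 1562 on average in stage II and 797, 1752, 2935 and 5583 in stage III. Its 4 stage III arrays spanned a wide range, and the log2 difference was 5.34 in the low and 9.17 in the high class. AT1G62480 had a similar course, with 11.6, 18.8, 22.9 and 3.38, a stage II mean of 598, and 509, 969, 1424 and 2997. AT1G62510 gave 204, 551, 1214 and 1133 in stage III from levels below background, at least 42.4-fold higher. GT2, a trihelix transcription factor, gave 0.568, 0.931, 1.26 and 3.13 against 81.8, 234, 290.2 and 441, at least 15.1-fold higher. AT5G05790, AT3G45700, AT2G37440 and AT3G05920 rose by 6.32, 6.11, 5.94 and 5.83. Stage I was below background on all arrays for AT5G05790, AT2G37440 and AT3G05920, which were at least 21.42-, 16.46- and 22.07-fold higher. Stage II means lay between the ends for 14 of the 15 rises and 11 of the 15 falls.

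Other families were measured as well. Of 42 AGAMOUS-like MADS-box probe sets 2 were called higher and 2 lower, or 4.8% each way, below the 21.0% and 22.1% of all probe sets, and only 8 had a mean above background at either end. Serine carboxypeptidase-like genes had 6 of 29 higher and 5 lower, or 20.7% and 17.2%, also below those shares. Of 4 measured genes of the ER body, a beta-glucosidase store of the epidermis, only PYK10 was called. It gave 2023, 2318, 2165 and 2024 in stage I and 1879, 1624, 776 and 1205 in stage III (-0.71, adjusted p = 0.039), and 10 alternatives ended the call. NAI2, an ER body structure protein, was at 590.1, 328, 313 and 373 against 539, 484, 215 and 488 (adjusted p = 0.88), and NAI1, its bHLH regulator, differed by -0.49 (adjusted p = 0.093).

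Of 69 plastid-encoded genes 11 were called lower and 1 higher. The share lower, 15.9%, was below the 22.1% of all probe sets. The median log2 difference was -0.38, with -0.63 in the low class and -0.05 in the high class. The number lower was 2 in the high class alone, 4 without stage I replicate 2 and 17 with the class as a block. clpP, a plastid protease subunit, gave 1624, 1776, 2136 and 1786 in stage I and 1007, 1161, 809 and 869.6 in stage III (-0.93), and ndhJ, an NADH dehydrogenase-like subunit, fell by 1.83.

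Markers of handling, heat and shoot tissue were set beside these results. Of 3 measured touch and wound genes 2 rose, or 66.7%, where 21.0% of all probe sets did. They were WRKY6 (1.07, 138, 162, 117 and 105 against 282, 299.5, 215 and 306) and WRKY53 (1.38, not called in the low class alone). STZ was not called (adjusted p = 0.99). Of 8 heat shock proteins 1 rose and 2 fell, or 12.5% and 25.0% beside 21.0% and 22.1% of all probe sets. Hsp70-2 was at -1.56 and HSA32 at 0.01. Of 15 photosynthesis genes 7 rose, or 46.7% beside 21.0% of all probe sets, at a highest signal of 105.7 on any array. RCA, the Rubisco activase of green tissue, gave 12.7, 26.0, 18.1 and 13.5 against 37.0, 47.9, 46.7 and 23.7 (1.05, adjusted p = 0.011) and was not called in either class alone. The summed photosynthesis signal was 196.4 to 284.7 in stage I and 323.0 to 560.1 in stage III. The part of handling or greening in the stage difference was not tested.

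The marker-line arrays, which share no array with the stages, show where the same genes were highest. These lines carry a GFP marker: J3411 for lateral root cap and epidermis, SCR for endodermis with quiescent centre, WOL for stele, GL2 for hairless epidermal cells, and J0571 for cortex, endodermis and quiescent centre. Their control ratios differ from those of the stage arrays, so levels were compared only among lines. The lines also differ in background, C24 for J3411 and Landsberg for SCR. SCR replicates 2 and 3 are the only line arrays in the low spike-in class. In comparisons with J3411 or SCR, tissue therefore cannot be told apart from background, nor for SCR from class. Of 18463 probe sets above background in a line, 20.4% had their highest mean in WOL, 23.2% in SCR, 18.4% in J3411, 19.1% in GL2 and 18.9% in J0571. Of the 1604 that were at least 4-fold higher in stage III, 46.4% were highest in WOL and 31.3% in SCR. Of the 1141 that were at least 4-fold lower, 43.0% were highest in J0571 and 26.2% in GL2, and 1.9% in SCR. J0571 and SCR both mark endodermis and quiescent centre, and whether these shares reflect tissue was not tested.

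**Figure D4:**
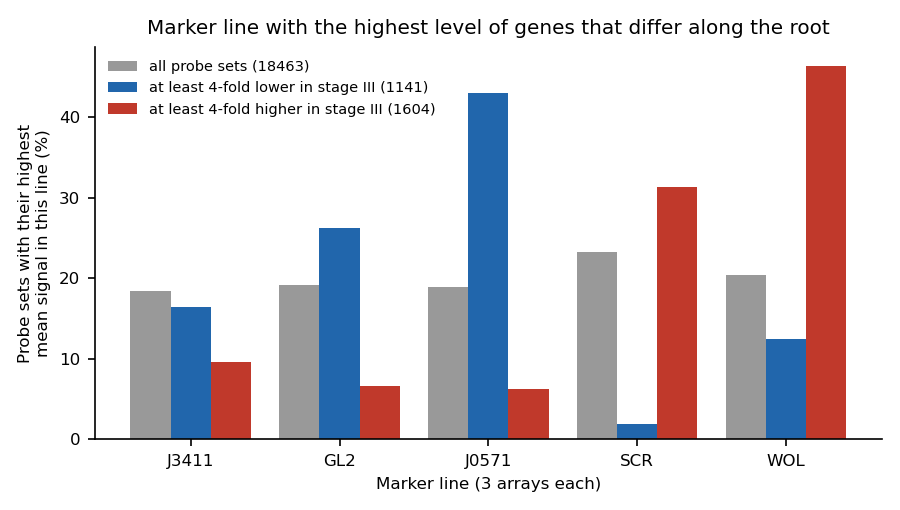
Share of probe sets (y axis, percent) with their highest mean signal in each marker line (x axis, 3 arrays per line), for all probe sets, those at least 4-fold lower and those at least 4-fold higher in stage III, with numbers in the key. Genes higher in stage III were highest in WOL for 46.4%, and genes lower in stage III were highest in J0571 for 43.0%.

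Without SCR replicate 1, which has no tissue label, the WOL share of genes higher in stage III was 47.9% and the SCR share 28.2%. Without J3411 replicate 3 the WOL share was 47.4%. Clear maxima were fewer: 17.4% of the genes higher in stage III had at least 2 times the next line's signal in WOL, beside 2.5% of all, and 6.6% of those lower had it in J3411, beside 2.2%. Counting any maximum, however, 16.4% of those lower were highest in J3411, below the 18.4% of all. Of the 15 largest falls 10 were highest in J3411, AT1G50060, AT5G24070 and AT5G60530 among them. Of the 15 largest rises 9 were highest in WOL. The hair gene EXPA7 was also highest in WOL, at a mean of 142 against 16.2 in GL2 and 76.4 in J3411, and whether such maxima reflect the stele was not tested.

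Since each spike-in class holds 2 arrays of each stage, the contrast could be made on separate arrays. The labels do not say whether these came from separate cultures. Within each class the r2-At GAPDH and actin control ratios also differed between the stages, in opposite directions. Of 22746 probe sets, 3741 were called higher and 4398 lower in the low class, and 4143 higher and 4086 lower in the high class. Of the probe sets higher in the low class 78.0% were also higher in the high class, and this was 70.4% of those called in the high class. Of the lower ones 75.2% and 81.0% were shared. Probe sets called in opposite directions numbered 2 and 2. Sizes differed more than directions: AT1G04040 and AT1G50060 had log2 differences about 4 units apart between classes, whereas GSO1 (3.86 and 3.97) and AT1G80750 (-3.01 and -3.15) were nearly equal. Both wide gaps involve signals below background. These were 12.4 and 0.954 for AT1G04040 in stage I of the high class, and 1.67 and 2.31 for AT1G50060 in stage III of the low class.

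**Figure D5:**
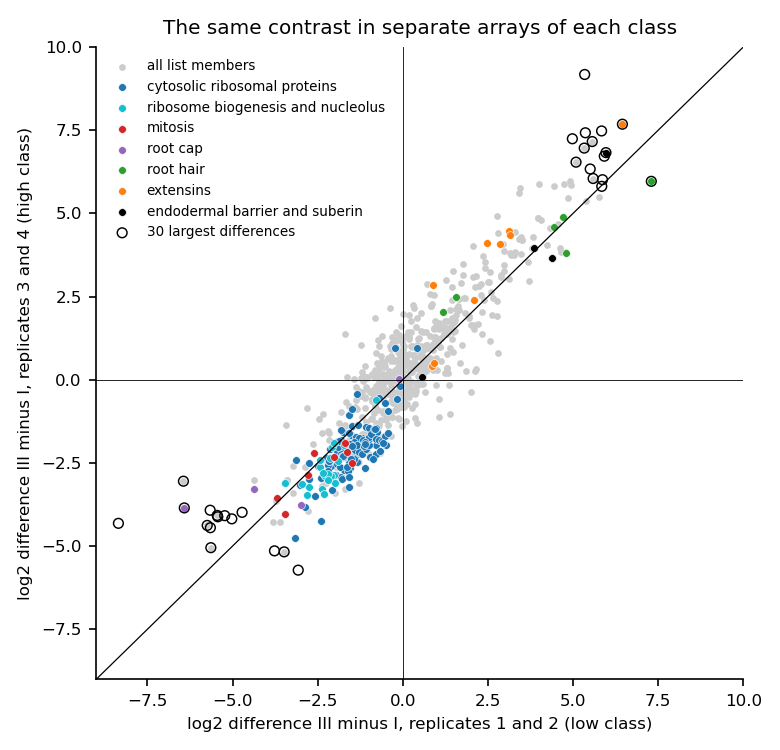
Log2 difference between stage III and stage I in replicates 1 and 2 (x axis, low class) and in replicates 3 and 4 (y axis, high class) for all list members, with selected lists in colour, the 30 largest differences circled and the line of equality drawn. Extensins and ribosomal protein genes tend to be larger in size in the high class, with medians of 4.08 and -2.08 against 2.47 and -1.50, while 12 of the 15 largest falls are larger in size in the low class.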

How the data were processed

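The deposited values are signal intensities, 1 per probe set and array, made by the authors with MAS5, per the submitters' processing notes, which name no version. The 2% trimmed mean of each array was about 100.0, so levels are relative to the array's total. A pseudocount of 2.37, the 10th percentile, was added before log2, and 64 control probe sets were left out. A mean per stage was fitted to the 12 stage arrays in limma 3.58.1 (R 4.3.3) with an intensity trend and Benjamini-Hochberg adjustment at 0.05, two-sided. Log2 differences near background depend on the pseudocount, which is below the background. For some genes the fold is therefore given as a bound, with low signals raised to 14.78, the 95th percentile of 12 control probe sets. Such bounds are smaller than the log2 differences imply.

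Groups came from GEO's stage labels. One gene was assigned to 13513 probe sets, 503 had several and the rest none, so lists cover part of each family. Of the 13513, 13436 matched RefSeq (TAIR10.1), used for symbols and gene order. Families of genes known only by locus code rest on general knowledge. Genes named were the 15 largest rises and falls with non-overlapping arrays, then list members. Members and lists were chosen with earlier results of these data known, and lists were not tested as sets. No listed aquaporin or nutrient transporter had an assigned probe set. The fit was tested on simulated data.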

Additional observations from a re-analysis of the deposited data

Results flagged for a closer look

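Among 288 sets of 4 arrays tested, 1 array stood apart from its other 3 in 21, where chance gives about 1 in 20. In stage I these were PRL at 232 on replicate 1 (others 303 to 316), AT1G80750 at 853 on replicate 3 (others 559.9 to 604) and AT3G49960 at 48.6 on replicate 3 (others 0.707 to 1.35). Replicate 2 of stage I was high for AT3G01190 at 98.2, AT5G51890 at 99.7, AT5G51470 at 245 and AT3G45700 at 29.9. In each case the array stayed on its own side of all stage III arrays.

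In stage III, replicate 4 was low for BUBR1 at 1.80 and high for GSO1 at 573, AT5G51470 at 13.0, AT3G32030 at 969, AT3G05920 at 694 and GH9B6 at 46.8. For GH9B6 the other 3 arrays gave 3.51 to 3.90. Replicate 3 was high for AT5G20290 at 3526, AT5G24070 at 12.3 and IAA20 at 17.9, and low for NAI2 at 215 (others 484 to 539). Replicate 1 was high for AT5G15510 at 11.9 and FACT at 54.3 (others 15.2 to 19.7) and low for TET6 at 138, and replicate 2 was high for SWEET11 at 364. BUBR1, AT5G24070, AT5G51470 and AT5G15510 were below background on these arrays, where the order of signals carries little information.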

How the results depend on the processing

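Of 19 alternatives, none moved the number of probe sets called, in either direction, by more than 1.5 times. The number called was 9628 with no pseudocount, 10013 with a pseudocount at the 25th percentile, 9964 after quantile normalization, 9516 of 16288 with dim probe sets left out, 9692 with no intensity trend and 9359 with only the 8 arrays of stages I and III. Leaving out each array in turn gave 9043 to 9572 in all, 4251 to 4649 higher and 4681 to 4923 lower. Quantile normalization moved the median log2 difference of all probe sets from 0.07 to -0.05 and gave 4559 higher and 5405 lower. Of 140 named genes 128 were called, 117 of them under every alternative, and none changed sign while called. ICU2, BBM, TUB6, SWEET13, WRKY53, RCA, ndhJ and IQD22 lost the call with 1 spike-in class alone or with both taken singly, where each arm has 2 arrays. LHW, TUB6 and clpP missed a 2-fold minimum. PYK10 lost the call under 10 alternatives, among them quantile normalization and the removal of any stage I array. The cause was not tested. Spread between 4 arrays, and signals near background, limit precision.

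Replicate numbers are shared by the stages, and a fit with the replicate block called 10830 probe sets, 5330 higher and 5500 lower. Deviations from the stage means correlated at 0.251, 0.204, 0.0981 and 0.114 for numbers 1 to 4, and stage I replicate 3 correlated best with stage III replicate 4. Same-numbered arrays also share a spike-in class, and arrays of different classes correlated at -0.146 to -0.0995. With the class as a block 10805 probe sets were called. Pairing required more than 0.1 for every number. Because number 3 stayed under 0.1 and the labels name no shared batch, the numbers were not taken as pairs, and the fit without a block gave the main values. All same-numbered correlations were positive, so that fit leaves variation shared by number or class in the spread. It called fewer probe sets, 9806, than either block fit.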

Other observations

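Further families had members called in both directions. Of 15 IQ-domain genes, whose proteins bind calmodulin and microtubules, 4 rose and 5 fell. That is 26.7% and 33.3%, beside 21.0% and 22.1% of all probe sets, with a median log2 difference of -0.12. IQD18 gave 68.6, 77.8, 110.0 and 82.9 in stage I and 1.02, 6.25, 4.15 and 1.56 in stage III, below background on all 4 arrays (-4.04, adjusted p = 6e-07). IQD16 and IQD22 fell by 2.74 and 1.83. In the high spike-in class alone IQD22 was not called (adjusted p = 0.084) and 3 members were lower. IQD19 gave 3.58, 11.8, 7.30 and 14.4 against 95.3, 136, 131 and 158 and rose by 3.59, and IQD23 rose by 2.36. Of 15 tetraspanins, membrane proteins with 4 spans, 7 rose and 1 fell, or 46.7% and 6.7%. TET12, TET6 and TET5 rose by 3.87, 3.59 and 3.03, and TET10 fell by 1.74. These families were picked after the annotation had been read.

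Neighbouring genes were set side by side. Among 5878 pairs of adjacent genes with both members measured, 48 had both at least 4-fold higher in stage III, 28 had both at least 4-fold lower, and 42 had 1 of each. Of the 8897 genes in these pairs, 6.98% were at least 4-fold higher and 5.59% at least 4-fold lower. Whether such pairs were more frequent than these shares give was not tested. The XTH18 and XTH19 pair (3.87 and 2.62), the UGT71C2 and UGT71C1 pair (2.90 and 4.61) and the AT3G45700 and AT3G45710 pair (6.11 and 3.91) were among the first. AT1G52050, AT1G52060 and AT1G52070, 3 genes in a row, gave -3.74, -3.51 and -3.93. Tandem copies can share sequence, and cross-hybridization between them was not tested. Pairs of genes with no shared list were also present, such as AT5G15510 and AT5G15520 at -4.33 and -2.52. These pairs were named after their values were seen.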
